A study of Mus musculus with 6 samples.

Results

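The Trim genes encode tripartite motif proteins, most of which are E3 ubiquitin ligases. The family was taken here as every gene of the expression table whose mouse symbol in the GENCODE M21 annotation is Trim followed by a digit, which gave 68 of the 22442 genes. The annotation holds 69 such genes, and the remaining one, Trim30e-ps1, is no row of the table. The question was where Trim21, the gene that the study followed downstream of Stat3, stood among its relatives in stimulated tubular cells, and which relatives differed when Stat3 was targeted. RNA was sequenced from 6 cultures of mouse renal tubular epithelial cells (mTECs), all exposed to LPS, a bacterial lipopolysaccharide that activates Toll-like receptor 4, at 20 μg/ml for 24 h. Beforehand, 3 cultures were transfected with a negative control (labelled LPS) and 3 with an RNA against Stat3 (labelled LPSKD). According to the labels the cells were sorted magnetically and given an siRNA, whereas the study's methods describe an immortalised mTEC line, so the cultures may share 1 line, and p-values then measure only the spread between these libraries. No culture without LPS was among the libraries, so the effect of LPS itself could not be measured.

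A TRIM protein carries a RING domain, which binds the ubiquitin-charged E2 enzyme, then B-boxes and a coiled coil, through which the protein forms dimers. The part that follows differs between subfamilies and often chooses the target. In the largest subfamily it is a PRY-SPRY domain. Trim21 is a PRY-SPRY member that binds the constant part of antibodies inside the cell and sends antibody-coated particles to the proteasome. Several relatives take part in antiviral defence, among them Trim25, known for modifying the RNA sensor RIG-I, and mouse Trim30a, known as a restraint on Toll-like receptor signalling. Interferon induces many of these genes through a short promoter element, the interferon-stimulated response element (ISRE). Other members have constitutive roles in the nucleus, at microtubules or in organelles. Trim28, also called KAP1, is a corepressor that silences retroelements together with zinc finger proteins.

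The authors deposited FPKM values, that is, fragments on a gene per kilobase of its length and per fixed number of fragments in the library. They could be turned back into whole fragments, with library totals from 24084827 to 25422171, so that depth was even and the number of fragments behind each value is known. Stat3 itself had an FPKM of 34.6, 31.4 and 35.2 under the label LPS and of 30.8, 35.2 and 34.3 under LPSKD (log2 fold change −0.01, standard error 0.07, adjusted p = 0.944 from limma). The transcript level thus did not separate the groups, and they are named by their labels throughout. The study reported Stat3 knockdown in mTECs by real-time PCR and western blot, without stating whether these were the sequenced cultures. Epithelial keratins and cadherins were abundant, whereas the proximal tubule markers Slc34a1 and Lrp2 had 3 or fewer fragments in every library. Cubn and Aqp1, which also mark the proximal tubule, were detected, with 221 to 300 and 77 to 189 fragments per library. The injury marker Havcr1 had 111 to 173. Of 15 renal tubule and epithelial markers 12 reached the minimum mean FPKM of 0.5 for a test. Of these, 5 differed between the groups, where 3.23% of all genes tested did. Pax2, Pax8, Cdh16 and Aqp1 were higher and Krt18 lower in the libraries labelled LPSKD. The summed FPKM of the 15 ran from 3828 to 3902 under the label LPS and from 3816 to 3868 under LPSKD. Krt8, Krt18 and Krt19 made up most of that sum (mean FPKM 1188, 1227 and 598), so it says little about the other markers. The summed FPKM of 8 immune cell markers lay between 58.2 and 64.8 in the libraries labelled LPS and between 61.4 and 74.8 in those labelled LPSKD, with Csf1r higher in the latter. The summed FPKM of 4 endothelial markers was at most 4.46 in any library, and 5 fibroblast markers summed to between 15.6 and 30.1. The part of these markers in the results below was not tested.

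The tubular cells expressed 35 of the 68 members at a level that could be tested. Over the 6 libraries, a mean FPKM of 0.5, the minimum for a test, was reached by 35 members (51.5%) and by 52.2% of all genes. Of the 33 others, 12 were listed at 0 in every library, 9 had at most 3 fragments in each library and 12 had more. Among the genes listed at 0 were Trim9, Trim67 and Trim55 of the microtubule-binding COS box subfamily, known for roles in neurons or muscle. A listing at 0 in a table of this kind need not mean absence. The family's summed FPKM lay between 925 and 955 in the libraries labelled LPS and between 897 and 923 in those labelled LPSKD.

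Trim28 was by far the most abundant member on the FPKM scale, which corrects for gene length. Its values were 239, 219 and 234 in the 3 libraries labelled LPS against 232, 233 and 231 in the 3 labelled LPSKD, which made up between 23.6% and 26.0% of the family's total. Next came Trim16, a member without a RING domain that responds to damaged membranes, with a mean FPKM of 60.6. Trim35 followed with 59.1, Trim59, which is anchored in membranes, with 55.0, and Trim27, a regulator of endosomal traffic, with 52.1. Neighbours in this order overlapped in their values over the libraries. Trim21 was among the less abundant tested members. It took rank 25 of the 68 by mean FPKM in the libraries labelled LPS and rank 26 in those labelled LPSKD, and it contributed between 0.671% and 0.725% of the family's FPKM in the former and between 0.277% and 0.370% in the latter. In the libraries labelled LPS its FPKM of 6.26 to 6.85 lay beside those of Trim46 (6.78 to 7.68) and Trim12c (5.15 to 7.60), with which it overlapped, and below the 8.75 to 10.2 of Trim25.

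**Figure D1:**
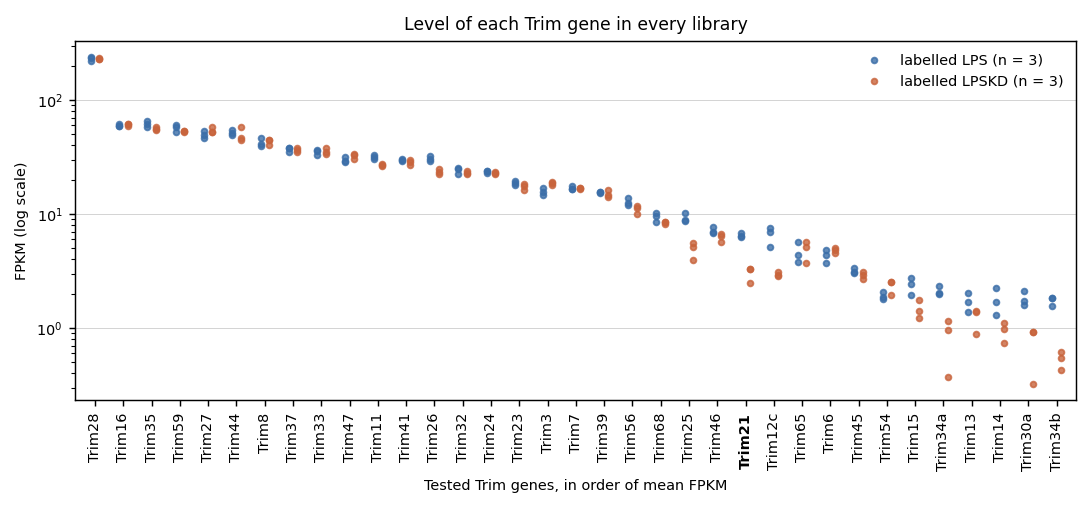
FPKM on a log axis for the 35 tested Trim genes in order of their mean, with 1 point per library, blue for the 3 libraries labelled LPS and orange for the 3 labelled LPSKD. Trim28 stands alone near 231 and Trim21 (bold) lies to the right, where most of the visible gaps between blue and orange points are found.

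By subfamily, the range of level in the PRY-SPRY group overlapped that of every other group, but some smaller groups stood apart. The tested COS box members, with means from 2.11 to 6.69, lay below all tested NHL repeat and PHD-bromodomain members. The PRY-SPRY group had the most genes, 38, of which 20 were tested, with mean FPKM from 1.13 (Trim34b) to 60.6 (Trim16). Of the 4 PHD-bromodomain members, which read chromatin, the 3 tested had means between 23.2 and 231. In the COS box group only 2 of 8 members were tested, and the more abundant, Trim46, which bundles microtubules in axons, had a mean of 6.69. Among the NHL repeat proteins, many of which bind RNA, the most abundant was Trim32 with a mean of 23.7. Single members stood for the ARF, MATH and filamin types, namely Trim23 with 18.1, the peroxisomal ligase Trim37 with 36.8 and Trim45 with 3.03. Of the 8 members without an added domain at the C-terminus 3 were tested, and Trim44 had the highest mean of 50.8. Trim80, which was assigned to no subfamily, had 1 fragment in 1 library.

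Between the groups, 6 of the 35 tested members passed an adjusted p of 0.05, and all 6 were lower in the libraries labelled LPSKD. They were Trim34b, Trim12c, Trim21, Trim25, Trim26 and Trim11, and each belongs to the PRY-SPRY subfamily. The tests were made with limma on log2(FPKM + 0.1) over all 11723 genes tested, of which 3.23% passed in either direction and 1.66% passed as lower, against 17.1% of the tested members. No member passed as higher. At an unadjusted p under 0.05, 12 members were lower and 1 was higher. The share of all genes at that threshold was not worked out, so no excess can be read from these counts. The median log2 fold change was −0.11 over the 35 members and −0.008 over all genes tested. The FPKM of the groups did not overlap for 14 of the 35 members (40.0%), 13 lower and 1 higher, and for 23.8% of all genes tested. With 3 libraries against 3, an exact two-sided permutation test cannot give a p under 0.1, and it gave 0.1 for each of the 6.

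**Figure D2:**
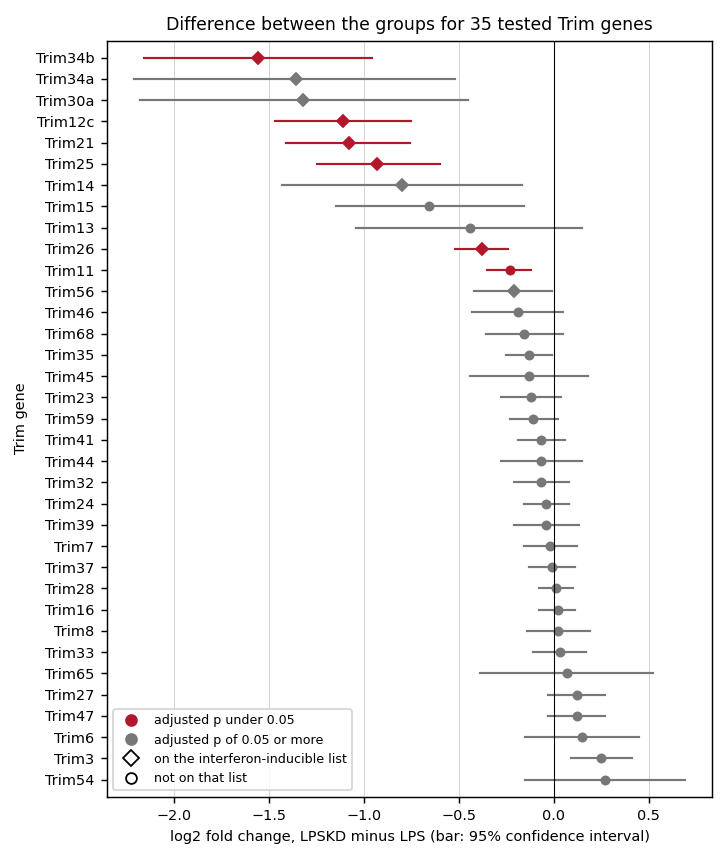
Log2 fold change (libraries labelled LPSKD minus those labelled LPS, n = 3 each) of the 35 tested Trim genes with the 95% confidence interval from limma as a bar. Red marks an adjusted p under 0.05, and diamonds mark members known to be induced by interferon. The 6 red genes all lie left of 0, and 5 of them are diamonds.

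Most of these genes are known to be induced by interferon. A list of 15 such members, drawn up from general knowledge with earlier results of these data known, held 9 tested genes, of which 5 fell and none rose, with a median log2 fold change of −1.08 and a range from −1.56 to −0.21. Among the 26 tested members that are not on the list, Trim11 alone passed. Their median log2 fold change was −0.04 with a range from −0.66 to 0.27. Over all genes tested, 1.66% passed as lower. Because earlier results were known when the list was made, its contrast with the other members is not independent evidence. The other 4 tested genes of the list were Trim34a, Trim30a, Trim14 and Trim56, each with a negative log2 fold change.

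Trim21 (ENSMUSG00000030966), encoded on the minus strand of chromosome 7 between 102557921 and 102565486, reached FPKM values of 6.41, 6.26 and 6.85 under the label LPS, against 3.32, 2.49 and 3.32 under LPSKD. Every value of the second group lay below every value of the first, and in bulk RNA fewer expressing cells and less RNA per cell cannot be told apart. The means were 6.51 ± 0.307 and 3.04 ± 0.482 (SD, n = 3), that is, a fall to 46.8%. The difference on the log2 scale was −1.08 (standard error 0.14, 95% confidence interval −1.41 to −0.76, adjusted p = 0.00549 from limma), from 83 to 232 fragments per library. The study selected Trim21 partly on these libraries, so its call is not independent evidence of its direction. No stretch of 31 bases of its coding sequence occurred in a transcript of another gene, so its fragments were not shared in that way. Ordered from the most negative log2 fold change, Trim21 was at rank 5 of the 35, behind Trim34b, Trim34a, Trim30a and Trim12c, and ahead of Trim25. With a pseudocount of 1 this order changed, and Trim12c alone was more negative than Trim21. The confidence intervals of these 6 overlapped. Trim68, its neighbour on chromosome 7, lies on the same strand, with 112 kb between the loci. Trim68 had an FPKM of 9.55, 10.2 and 8.55 against 8.53, 8.16 and 8.60, which overlapped (log2 fold change −0.16, adjusted p = 0.422).

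Trim25 (ENSMUSG00000000275, chromosome 11 of GRCm38, 88999376 to 89020293, plus strand) had an FPKM of 10.2, 8.75 and 8.90 under the label LPS. Under LPSKD it was 3.92, 5.52 and 5.19, so the groups stood apart. The means were 9.29 ± 0.801 and 4.88 ± 0.845 (SD, n = 3), and the difference on the log2 scale was −0.93 (standard error 0.14, adjusted p = 0.0112). Between 187 and 485 fragments per library lay behind these values. The call held with each library left out in turn. It was lost without the trend of variance with level in limma (adjusted p = 0.0586) and with the replicate number as a block (adjusted p = 0.0525). Over all alternatives the adjusted p ran from 6.11e-04 to 0.0586.

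Trim26 (ENSMUSG00000024457, chromosome 17, 36837134 to 36859398, plus strand), which modifies components of interferon signalling, was an abundant member with a smaller difference. Its FPKM was 32.2, 30.3 and 29.4 against 23.6, 22.3 and 24.8, again without overlap, from 901 to 1343 fragments. This was a fall to 76.9% (log2 fold change −0.38, standard error 0.06, adjusted p = 0.0149). Without LPSKD replicate 1 or 2 the adjusted p was 0.0643 or 0.0605. It was 0.0624 without the variance trend and 0.0503 with the replicate number as a block. Over all alternatives it ran from 0.00277 to 0.0643. Trim11 (ENSMUSG00000020455, chromosome 11, 58978093 to 58991458, plus strand), a ligase linked to the clearance of misfolded proteins, had the smallest difference of the 6. Its FPKM of 32.8, 30.6 and 31.4 stood against 27.3, 26.3 and 27.1, so the groups did not overlap, and it fell to 85.1% (log2 fold change −0.23, standard error 0.05, adjusted p = 0.0489). That call was lost in 12 of 16 alternatives, with an adjusted p between 0.0668 and 0.157 when each library was left out in turn. It was 0.0546 with a filter at a mean of 0.1, 0.0612 with no filter, 0.0541 after quantile normalization and 0.0513 after median centring.

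**Figure D3:**
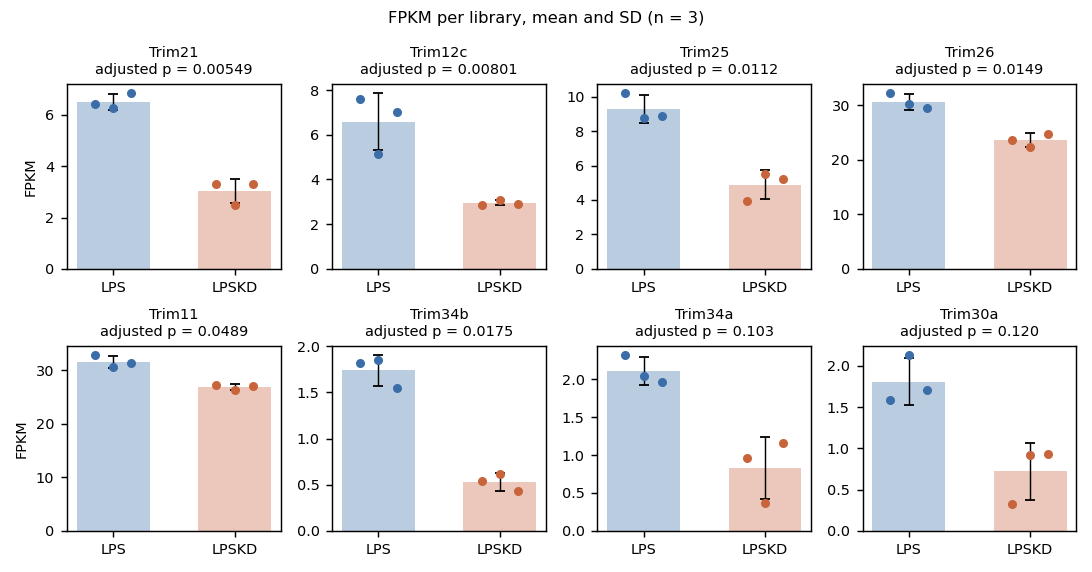
FPKM of 8 Trim genes in each library (points), with the group mean (bar) and SD (whisker, n = 3). The panels show the 6 genes that passed the test, followed by Trim34a and Trim30a, where 1 library labelled LPSKD lay well below the other two.

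Trim34b and Trim12c lie in a gene cluster on chromosome 7. Its 10 members lie between 104218793 and 104507849 of GRCm38, a span of 289 kb that starts 1.65 Mb beyond Trim21, in the order Trim6, Trim34a, Trim5, Trim12a, Trim34b, Trim12c, Trim30b, Trim30c, Trim30a and Trim30d. The mouse genes Trim12a, Trim12c and Trim30a to Trim30d are relatives of Trim5, known in primates as a restriction factor that binds retroviral capsids. Of the 10 genes 5 were tested, 2 fell and none rose, where 1.66% of all genes tested passed as lower.

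Trim34b (ENSMUSG00000090215, 104329471 to 104336909, plus strand) had the most negative log2 fold change of the family with a pseudocount of 0.1, but with a pseudocount of 1 it was −0.84, behind Trim12c (−0.92) and Trim21 (−0.90). In the LPS cultures its FPKM reached 1.82, 1.85 and 1.55, against 0.541, 0.618 and 0.426 in the cultures labelled LPSKD, from 16 to 68 fragments per library. The difference on the log2 scale was −1.56 (standard error 0.26, 95% confidence interval −2.16 to −0.96, adjusted p = 0.0175). Leaving out any library other than LPSKD replicate 2 ended the call, with adjusted p from 0.0542 to 0.0690 and log2 fold changes from −1.63 to −1.43. With the replicate number as a block the adjusted p was 0.0602. Trim34a, its near copy, had an FPKM of 2.32, 2.04 and 1.97 against 0.963, 0.371 and 1.16. These groups did not overlap either, but LPSKD replicate 2 lay far below the other two, and the gene did not pass (log2 fold change −1.36, standard error 0.37, adjusted p = 0.103). As 74.5% of the 31-base stretches in the coding sequence of Trim34a recur in Trim34b, fragments may have been split between them. Summed into 1 row, an alternative chosen after the data were seen, they had 4.14, 3.89 and 3.52 against 1.50, 0.988 and 1.59, which differed by −1.46 on the log2 scale (adjusted p = 0.00813).

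Trim12c (ENSMUSG00000057143, 104338754 to 104353362, minus strand) was the most abundant gene of the cluster. FPKM values of 7.60, 5.15 and 7.00 under the label LPS stood against 2.87, 3.09 and 2.90 under LPSKD, from 107 to 282 fragments. Even the lowest library of the first group, replicate 2, was well above the second group. The difference on the log2 scale was −1.11 (standard error 0.16, adjusted p = 0.00801). Its relatives Trim5 and Trim12a were barely detected, with at most 7 and 15 fragments in a library. Of the 31-base stretches of Trim12c, 57.6% occur in other genes, mostly Trim5, and with Trim5, Trim12a and Trim12c summed the log2 fold change was −1.01 (adjusted p = 0.0110).

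Trim30a (ENSMUSG00000030921, 104409025 to 104465193, minus strand) had an FPKM of 1.59, 2.13 and 1.71 against 0.323, 0.921 and 0.925. The groups did not overlap, yet the spread was wide and the gene did not pass (log2 fold change −1.32, standard error 0.38, adjusted p = 0.120). Voom on the fragments, which weights each value by its count, gave an adjusted p of 0.0435 for Trim30a and 0.0317 for Trim34a, and over the alternatives on each gene alone the adjusted p ran up to 0.255 and 0.228. Trim30a shares 24.6% of its stretches with other genes, mainly Trim30d, and the sum of both did not pass (log2 fold change −1.11, adjusted p = 0.216). Trim30b, Trim30c and Trim30d had at most 1, 10 and 15 fragments in a library. At the upstream end of the cluster Trim6 had an FPKM of 4.88, 3.73 and 4.33 against 4.51, 4.99 and 4.86, which overlapped (log2 fold change 0.15, 95% confidence interval −0.15 to 0.45, adjusted p = 0.605).

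**Figure D4:**
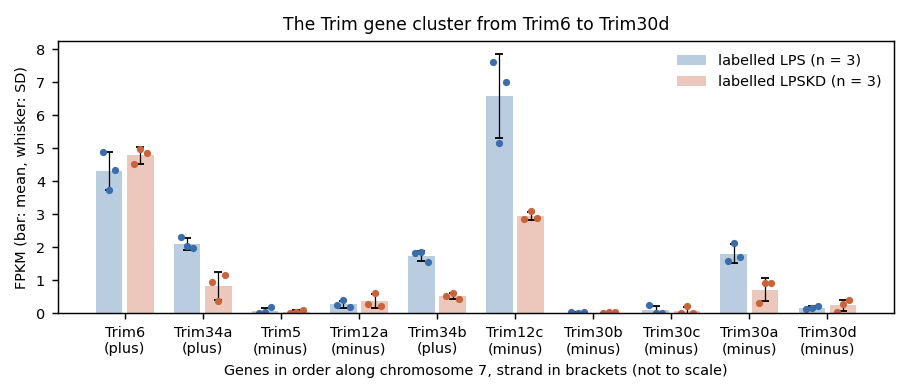
FPKM of the 10 Trim genes from Trim6 to Trim30d, drawn in chromosomal order and not to scale, with the group mean (bar), SD (whisker, n = 3) and each library (points). Trim34a, Trim34b, Trim12c and Trim30a have every orange point below every blue point, the orange points of Trim6 lie among or just above its blue ones, and the remaining 5 genes stay close to 0.

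The interferon list holds some further members. Trim14, an adaptor of antiviral signalling at mitochondria, had an FPKM of 1.69, 2.24 and 1.30 against 0.985, 1.11 and 0.740 (log2 fold change −0.80, standard error 0.28, adjusted p = 0.183). Its groups did not overlap, but it had only 26 to 77 fragments per library, and its locus overlaps Nans on the opposite strand. Trim56, a ligase linked to the DNA-sensing pathway, had 13.8, 12.4 and 12.0 against 11.3, 11.7 and 10.0 (log2 fold change −0.21, adjusted p = 0.272). Trim38 had 1 fragment in 1 library. Outside the list, Trim15 had an FPKM of 2.41, 2.75 and 1.94 against 1.77, 1.22 and 1.41 and did not pass (log2 fold change −0.66, adjusted p = 0.171). Trim69, which was too low for the test with at most 9 fragments, had 8, 9 and 5 fragments against 1, 4 and 0.

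Most members that did not pass had narrow intervals. For 22 of the 29 tested members that did not pass, the 95% confidence interval of the log2 fold change stayed within 0.5 of 0 on either side. The 7 with wider intervals were Trim13, Trim14, Trim15, Trim30a, Trim34a, Trim54 and Trim65, all with a mean FPKM under 5. For Trim28 the log2 fold change was 0.01 (95% confidence interval −0.08 to 0.10), and for Trim16 it was 0.02 (−0.08 to 0.11). Trim37 had −0.01 (−0.13 to 0.11), Trim32 −0.07 (−0.21 to 0.08) and Trim44 −0.07 (−0.28 to 0.15). For Trim35 it was −0.13 (−0.25 to −0.01), with groups that did not overlap and an adjusted p of 0.235. Trim59, Trim23, Trim45 and Trim46 had log2 fold changes from −0.19 to −0.11 and adjusted p from 0.349 to 0.690. Whether fragments were counted by strand is not given in the sources used here, and the loci of Trim28, Trim32 and Trim46 overlap Zbtb45, Astn2 and Krtcap2 on the opposite strand. Trim59 shares 365 of its 1179 stretches of 31 bases with other annotated genes.

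Values in the other direction were small. Trim54, a muscle-type member that binds microtubules, had the largest at 0.27 (95% confidence interval −0.15 to 0.69, adjusted p = 0.496), from FPKM of 1.86, 2.05 and 1.79 against 2.51, 2.53 and 1.93, and 28.1% of its stretches occur in another gene. Trim3, an NHL repeat protein, was the only tested member whose libraries labelled LPSKD all lay above those labelled LPS, with FPKM of 16.8, 14.8 and 15.5 against 18.9, 18.0 and 19.0. It did not pass (log2 fold change 0.25, standard error 0.07, adjusted p = 0.111), and voom on the fragments gave an adjusted p of 0.0466, in a range from 0.0466 to 0.283 over the alternatives. Trim47 and Trim27 each had a log2 fold change of 0.12 with overlapping groups, and the locus of Trim47 overlaps that of Trim65 on the same strand.

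Promoters were compared because several members that fell share a chromosomal region and are known interferon targets. RefSeq windows from 250 bases before to 50 bases after the start of transcription (GRCm38.p6) were found for 53 of the 68 members, 67 windows in all. They were searched on both strands for GAAA and GAAA with any 2 bases between them, the core of the ISRE, and for TTC and GAA with any 3 bases between them, the letters of a gamma-activated site (GAS), to which STAT dimers bind. ISRE letters were found in 10 of the 67 member windows (14.9%) and in 3.44% of all 32851 windows. GAS letters were in 7 member windows (10.4%) and in 8.30% of all. Of the members that fell, 5 had a window, and Trim21, Trim12c and Trim26 held ISRE letters, whereas Trim25 and Trim34b did not. None of these 5 windows held GAS letters. Of the 22 tested members with a window that did not pass, 2 held ISRE letters, Trim30a and Trim34a, and 3 held GAS letters, Trim15, Trim45 and Trim46. A match is a description of letters, and the windows cover only these 300 bases. The segment of the Trim21 promoter that the study tested for Stat3 lies further upstream and was not searched here. The stretches below are shown because they carry the ISRE letters (in capitals) of genes that fell or of their closest relatives. They are written 5′ to 3′ on the strand of the gene.
Trim21 (chr7:102565447-102565476, minus strand, untranslated part of the first exon): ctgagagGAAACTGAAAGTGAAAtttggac
Trim26 (chr17:36836961-36837026, plus strand, upstream): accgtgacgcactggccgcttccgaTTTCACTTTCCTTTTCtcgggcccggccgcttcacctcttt
Trim12c (chr7:104353363-104353403, minus strand, upstream): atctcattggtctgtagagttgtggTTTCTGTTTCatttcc
Trim12a (chr7:104315476-104315510, minus strand, across the RefSeq start): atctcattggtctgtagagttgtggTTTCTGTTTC
Trim5 (chr7:104288121-104288180, minus strand, upstream): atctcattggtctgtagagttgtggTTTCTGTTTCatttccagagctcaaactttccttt
Trim30a (chr7:104465195-104465254, minus strand, upstream): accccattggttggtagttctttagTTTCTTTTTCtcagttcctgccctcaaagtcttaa
Trim30d (chr7:104507856-104507915, minus strand, upstream): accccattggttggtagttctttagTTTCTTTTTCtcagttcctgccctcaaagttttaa
Trim34a (chr7:104244457-104244486, plus strand, untranslated part of the first exon): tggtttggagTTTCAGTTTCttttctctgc

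Trim21 and Trim26 each held 2 overlapping matches. In Trim21 the letters read GAAA on the strand of the gene, and in the 7 other stretches they do so on the opposite strand. The matches of Trim21 covered positions 14 to 29 of the first exon, and those of Trim26 from position −160 to position −145 relative to the start. The stretch of Trim12c was identical to that of Trim5 over all 41 bases compared and to that of Trim12a over 35, and Trim30a and Trim30d were identical at 59 of 60 bases. Mean FPKM over the 6 libraries was 4.77 for Trim12c against 0.0707 for Trim5 and 0.332 for Trim12a (log2 fold change 0.28, adjusted p = 0.797 among all genes above 0), and 1.27 for Trim30a against 0.207 for Trim30d, with the limits on shared fragments given above.

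Relatives of TRIM structure under other symbols showed 1 fall. Of 11 such genes 7 were tested and 1 passed, and over all genes tested 1.66% passed as lower. The 1 gene that passed, Pml (Trim19), which builds nuclear bodies, had an FPKM of 46.2, 43.7 and 44.6 against 38.9, 35.1 and 38.4 (log2 fold change −0.26, standard error 0.05, adjusted p = 0.0426). The groups did not overlap. Leaving out any 1 library ended that call, with adjusted p from 0.0684 to 0.139. The median log2 fold change of the 7 was −0.11, close to that of the Trim genes.

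Of 21 genes for ubiquitin, its activating and conjugating enzymes and downstream factors, 20 were tested, with a median log2 fold change of 0.02. None passed in either direction, where 3.23% of all genes tested did. The list included Ube2w, Ube2n and Ube2v2, the conjugating enzymes with which Trim21 builds its ubiquitin chains. These 3 had adjusted p of 0.838, 0.539 and 0.988. The lowest adjusted p was that of Ube2l6, an E2 for the ubiquitin-like ISG15, with an FPKM of 5.38, 3.34 and 5.48 against 2.24, 2.63 and 2.92 (log2 fold change −0.82, adjusted p = 0.0876). Its groups did not overlap, and it passed without LPS replicate 2 (log2 fold change −1.04, adjusted p = 0.0215), in a range of adjusted p from 0.0215 to 0.256 over the alternatives.

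Among 21 substrates and pathway partners of Trim21 and Trim25, 20 were tested, 4 fell and none rose, with a median log2 fold change of −0.02, where 1.66% of all genes tested passed as lower. Ddx58, which encodes RIG-I, had an FPKM of 18.6, 20.2 and 19.1 against 5.61, 6.41 and 5.75 (log2 fold change −1.69, standard error 0.08, adjusted p = 2.44e-05). Ifih1, which encodes the RNA sensor MDA5, had 2.53, 2.72 and 2.72 against 0.833, 0.945 and 1.04 (log2 fold change −1.41, adjusted p = 0.00642). For Zc3hav1, which encodes the antiviral protein ZAP with Trim25 as its cofactor, the values were 45.3, 45.8 and 47.0 against 33.3, 37.2 and 35.8 (log2 fold change −0.38, adjusted p = 0.00730). For each of these 3 genes the groups did not overlap. Rnf135, a ligase of similar structure that also acts on RIG-I, did not pass (log2 fold change −0.28, adjusted p = 0.235). Gsdmd, which encodes the pore-forming gasdermin D that the study places downstream of Trim21, was close to the minimum level, with an FPKM of 0.412, 0.605 and 0.588 against 0.274, 1.11 and 0.565 from 10 to 39 fragments. Its log2 fold change of 0.09 had a 95% confidence interval from −1.01 to 1.19, so these libraries do not settle whether it differed within that interval. The study reported binding and cleavage of the gasdermin D protein, which transcript levels do not measure.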

How the data were processed

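Poly(A) RNA of 6 mTEC cultures was sequenced as paired ends, and the authors deposited 1 FPKM value per gene and library, without pooling. The submitters' processing notes name HISAT2 2.0, StringTie 1.3.0 and Bowtie 0.12.2 without a role. They give the genome builds as GRCh38.p13, which is human, and mm8, whereas the coordinates printed here are those of GRCm38. The gene models are not given in the sources used here. Of 16837 genes above 0, 16836 gave whole fragments in every library, 8289 at the merged coding length in GENCODE M21 (GRCm38), 8165 at up to 10 bases more and 382 at a length found by search. With totals raised by 0.1%, 2 did. Replicates differed by more than counting noise (chi-square per gene from 4.10 to 11.0), and each was kept.

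Groups were compared with limma 3.58.1 in R 4.3.3 (moderated by eBayes along a variance trend) after adding 0.1 to each FPKM and taking log2. Genes entered at a mean of 0.5 or more, with Benjamini-Hochberg adjustment over all of them at 0.05. A fold change on this scale understates that of low genes. On simulated data the fit recovered 193 of 197 changed genes, with 14 false calls among 11676 genes tested. Recovery at the size and spread of the differences seen in the Trim genes was not tested separately. Sequence searches and counts used Python 3.11.15 with pandas 2.3.3 and numpy 2.4.6, and figures matplotlib 3.10.9. Alternatives were pseudocounts of 1 and 0.01, filters at 1 and 0.1 and none, quantile normalization, median centring, eBayes with no trend, a replicate block, voom on the fragments and the omission of each library.

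The members and lists were chosen with earlier results of these data known. Named members are Trim21, those past the threshold, the 5 most abundant, the 5 largest rises and falls, the interferon list and the most abundant of each subfamily; of the other lists, genes past the threshold. Trim13, Trim15, Trim65, Trim68, Trim69, Ube2l6, Ube2w, Ube2n, Ube2v2, Rnf135, Gsdmd, single markers and genes listed at 0 were chosen after their values were seen. Some genes of the lists are not reported here by name.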

Additional observations from a re-analysis of the deposited data

How the results depend on the processing

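The count of 6 members past the threshold became 5, without Trim11, under a filter at a mean of 0.1, no filter, quantile normalization and median centring. It became 3 (Trim12c, Trim21 and Trim34b) without the variance trend, 2 (Trim12c and Trim21) with the replicate number as a block, and between 3 and 4 with each library left out, 3 without LPSKD replicate 1. Under voom it was 9, with Trim3 the only higher one. Same-numbered libraries did not deviate together (correlations −0.02, −0.00 and −0.04), which shows no pairing by number but cannot exclude one. The block left the log2 fold change of Trim21 at −1.08 (adjusted p = 0.0218). Over all genes, the 379 calls became 140 without the trend, 213 with the block and 598 under voom, and between 158 and 356 with each library left out. Trim21 and Trim12c passed under each of 16 alternatives, Trim21 with log2 fold changes from −1.15 to −0.90. Pml, the 1 call among relatives, became 0 without a filter, without the trend and with the block, and 0 with each library left out. The 4 calls among ubiquitin partner genes stayed at 4, or 5 with Ube2l6 without LPS replicate 2. Signs turned only for values close to 0. With single libraries left out, Stat3 ranged from −0.06 to 0.04, Trim28 was −0.01 under quantile normalization and −0.03 without LPS replicate 2, Trim16 −0.00 without LPS replicate 3, Trim37 0.01 without LPS replicate 1, LPS replicate 3 or LPSKD replicate 1 (lowest −0.05 over the libraries left out), and Trim44 0.01 without LPSKD replicate 3 (lowest −0.18). The cause of these changes was not tested. With under 100 fragments per library, as for Trim34a, Trim34b, Trim30a, Trim14 and Trim15, counting error adds to the spread between libraries.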
